A study of Mus musculus with 12 samples.

Results

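The 10 genes described here encode the signalling part of the T cell receptor complex and its nearest partners, listed on the array as CD3D, CD3E, CD3G, CD247, ZAP70, LCK, LAT, CD2, CD28 and CTLA4. They were taken as every probe whose target name, without regard to case, equals one of these names. This gave 16 of the 45281 probes and 10 of the 28698 genes on the array, and all 10 genes were among the 12822 that passed the detection filter and were tested. Expression was measured on 12 Illumina MouseWG-6 version 2 BeadChip arrays, 1 for each lymphoma. All 12 lymphomas were end-stage tumours of C57BL/6 mice with the Eµ-Myc transgene, in which the immunoglobulin heavy chain enhancer drives Myc in B-lineage cells. In 6 of them Smchd1 was wildtype, and in 6 it was null, meaning homozygous for a gene trap allele. Cells were taken fresh from the mice and sorted, and which markers the sort used is not given in the sources used here. Neither age nor sex is in the labels. Levels are log2 intensities after background correction and quantile normalization, and a probe is called detected on an array where its detection p-value against that array's negative control probes was under 0.05.

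T cells read antigen through an alpha and beta (or gamma and delta) receptor chain pair that has no signalling part of its own. The signal passes through the CD3 gamma, delta and epsilon chains and the CD247 (zeta) chain, whose cytoplasmic motifs are phosphorylated by the kinase LCK and then bound by the kinase ZAP70, which phosphorylates the adaptor LAT. CD2 is an adhesion receptor, CD28 a costimulatory receptor, and CTLA4 an inhibitory receptor that competes with CD28 for the ligands CD80 and CD86. B cells signal through CD79A, CD79B and the kinase SYK instead, and the CD3 chains are used as markers of T cells.

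The label of the tumours was checked on B cell genes, which did not stand equally high in all 12 lymphomas. Cd79b, a signalling chain of the B cell receptor, was detected on all 12 arrays, at 12.16 to 13.91. The mean of 15 B cell genes was lowest in wildtype replicate 2 and null replicate 2, at 8.90 and 8.95, against 9.16 to 11.10 in the other 10 lymphomas. Of the 15 genes, 12 and 11 were detected in those lymphomas, against 13 to 15 in the others. Ebf1 and Pax5 were not detected in either of them, and Ms4a1 was not detected in null replicate 2. Smchd1 was at 10.15 ± 0.31 in wildtype samples against 5.78 ± 0.67 in the null ones (SD, n = 6 each), and no null lymphoma reached a wildtype one. Between 14905 and 17724 probes were detected per array. Wildtype replicates 1 to 3 shared BeadChip 1 with null replicates 4 to 6, and the other 6 arrays, which were dimmer, were on BeadChip 2. In a bulk sample, fewer cells of a type and less RNA per cell cannot be told apart, and this holds for every level below.

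Cd3g, Cd3d and Cd3e lie next to each other on chromosome 9, with no other coding gene between them in the RefSeq gene table, and Lat lies on chromosome 7. Promoters are printed for these 4 genes because their levels followed one another most closely across the lymphomas (below), and they come from RefSeq with build GRCm38.p6. Each runs from 250 bases before to 50 bases after the start of the gene, is written 5′ to 3′ on the strand of the gene, and has in capitals each match, on either strand, to the Runx core TGTGGT or the Ets core GGAAGT. These are short cores recognised by factor families that act in lymphoid cells. The Cd3g promoter is at chr9:44980382-44980681, minus strand. The Cd3d promoter is at chr9:44981536-44981835, plus strand. The Cd3e promoter is at chr9:45009562-45009861, minus strand. The Lat promoter is at chr7:126369519-126369818, minus strand.
Cd3g: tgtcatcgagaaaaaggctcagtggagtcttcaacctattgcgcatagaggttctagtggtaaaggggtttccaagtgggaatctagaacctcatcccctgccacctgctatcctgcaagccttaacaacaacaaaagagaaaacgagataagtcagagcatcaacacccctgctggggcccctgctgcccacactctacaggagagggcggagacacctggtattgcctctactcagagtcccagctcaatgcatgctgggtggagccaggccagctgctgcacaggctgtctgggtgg
Cd3d: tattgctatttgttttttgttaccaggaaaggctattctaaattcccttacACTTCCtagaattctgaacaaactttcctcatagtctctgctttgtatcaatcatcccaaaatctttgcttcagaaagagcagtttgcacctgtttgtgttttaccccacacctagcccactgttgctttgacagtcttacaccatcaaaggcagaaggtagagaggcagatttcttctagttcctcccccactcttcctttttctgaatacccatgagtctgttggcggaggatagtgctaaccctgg
Cd3e: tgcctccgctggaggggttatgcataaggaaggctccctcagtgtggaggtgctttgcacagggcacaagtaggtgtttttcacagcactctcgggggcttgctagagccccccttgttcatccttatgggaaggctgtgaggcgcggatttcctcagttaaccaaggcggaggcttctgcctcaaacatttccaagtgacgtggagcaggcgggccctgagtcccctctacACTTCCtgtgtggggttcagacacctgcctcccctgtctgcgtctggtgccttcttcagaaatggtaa
Lat: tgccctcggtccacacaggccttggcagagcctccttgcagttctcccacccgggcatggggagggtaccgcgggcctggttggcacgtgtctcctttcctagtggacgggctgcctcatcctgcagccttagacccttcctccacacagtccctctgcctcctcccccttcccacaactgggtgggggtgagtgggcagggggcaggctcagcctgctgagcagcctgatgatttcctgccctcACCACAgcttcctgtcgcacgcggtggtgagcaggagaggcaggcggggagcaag
The Cd3g and Cd3d windows face away from each other with 854 bases between them. Cd3d and Cd3e held 1 Ets core each, Cd3g held neither core, and Lat held 1 Runx core. Of 32851 promoters of the same length, 23.8% held the Ets core and 16.8% the Runx core. Of the 8 genes with a promoter in the table (11 promoters, since Zap70 has 3 and Lck 2), 5 held the Ets core and 3 the Runx core in at least 1 window, Cd247 with 2 Ets cores in its only window. The E-box CACGTG, the motif of Myc with its partner Max, was in the windows of Lat and of Zap70 and in 7.2% of all promoters. The looser E-box CANNTG, which includes CACGTG, was in windows of all 8 genes and in 72.3% of all promoters. These are matches of letters and describe the windows alone. Cd2 and Cd28 are named without a sequence.

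**Figure D1:**
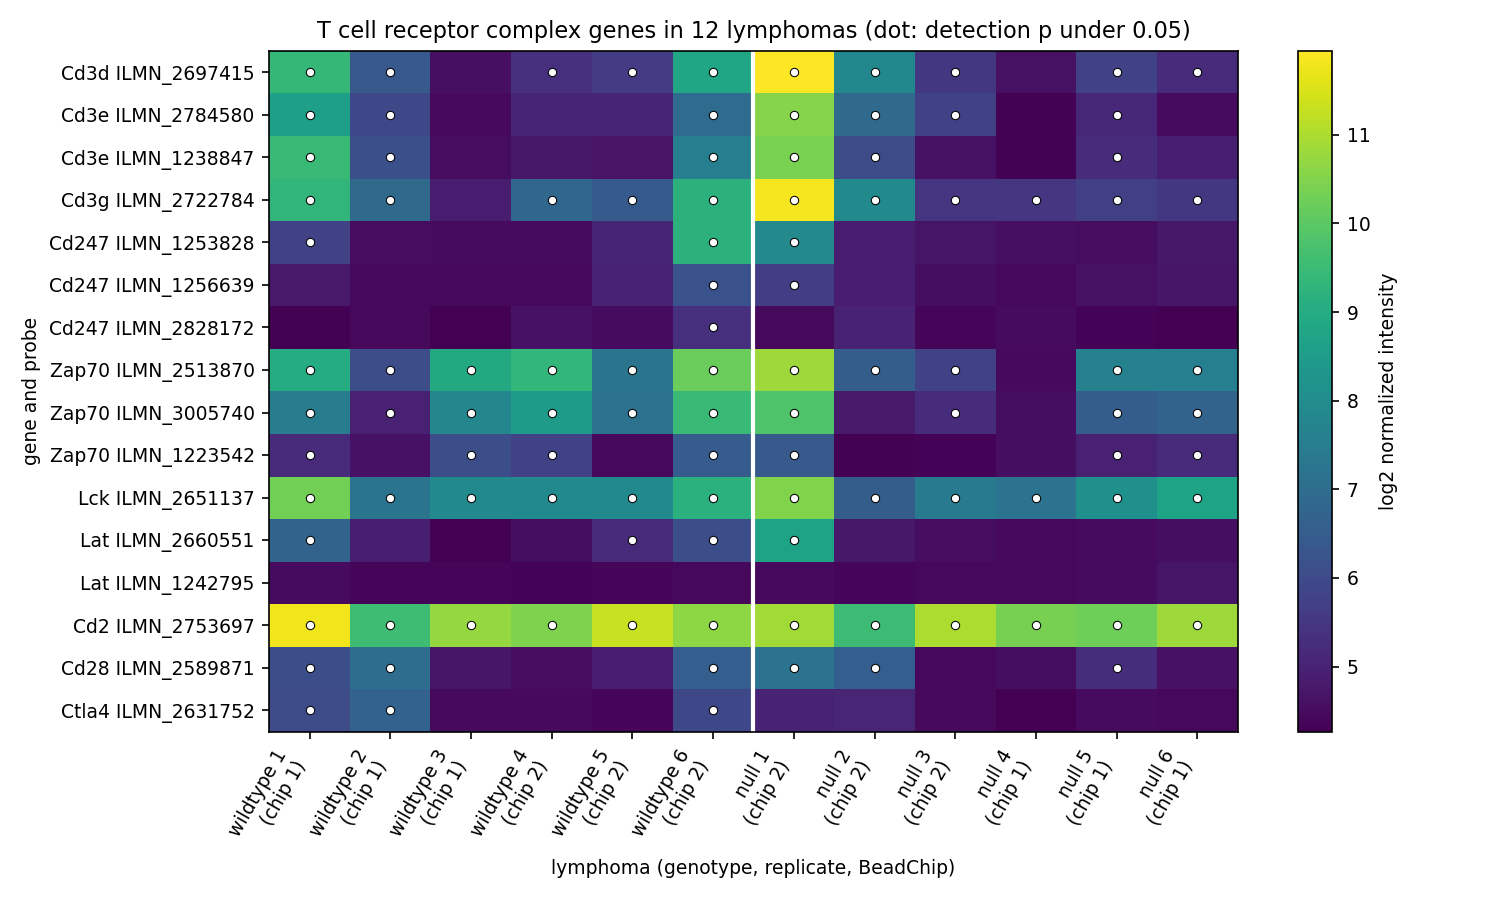
Log2 intensity of the 16 probes (rows) in the 12 lymphomas (columns), with a dot where the detection p was under 0.05. Wildtype replicates 1 and 6 and null replicate 1 were bright for most genes, Cd2 and Lck were detected in all 12 lymphomas, and the second Lat probe in none.

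The CD3 chain genes were high in 3 lymphomas, in both genotypes, and near background in several others. Cd3d, the delta chain, ran from 4.58 through a median of 6.03 to 9.37 in wildtype lymphomas and from 4.62 through 5.66 to 11.95 in null lymphomas. Null replicate 1 was highest, followed by wildtype replicates 1 (9.37) and 6 (8.78), then null replicate 2 (7.85) and wildtype replicate 2 (6.42). In raw intensity, before any correction, null replicate 1 was at 1970.8 and wildtype replicate 1 at 1146.3, against 101.4 in wildtype replicate 3 and 105.4 in null replicate 4. In those last lymphomas Cd3d was not detected (detection p-values of 0.247 and 0.186), and it was detected in the other 10. Each lymphoma was measured on 1 array, so the order of neighbouring lymphomas has no error of its own.

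Cd3g, the gamma chain, had the same 3 lymphomas on top. It ran from 4.89 through 6.86 to 9.33 in wildtype and from 5.45 through 5.61 to 11.85 in null lymphomas. It was detected in all 12 but wildtype replicate 3 (a detection p-value of 0.0641). Wildtype replicates 4 and 5 were at 6.81 and 6.43, above null replicates 3, 4, 5 and 6, which lay between 5.45 and 5.72.

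Cd3e, the epsilon chain, has 2 probes, whose levels had a Pearson r of 0.96 over the 12 arrays. The brighter, ILMN_2784580, ran from 4.46 through 5.50 to 8.60 in wildtype and from 4.31 through 5.43 to 10.56 in null lymphomas, detected in 3 and 4 of them. The other, ILMN_1238847, ran from 4.52 through 5.45 to 9.47 and from 4.30 through 5.08 to 10.41, detected in 3 and 3. Both put null replicate 1 first and wildtype replicates 1 and 6 next among the lymphomas. They parted in null replicate 3, where ILMN_2784580 was detected at 5.74 and ILMN_1238847 was not, at 4.60.

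Cd247, the zeta chain, was detected in 3 lymphomas. Its brightest probe was at 9.20 in wildtype replicate 6, 7.88 in null replicate 1 and 5.77 in wildtype replicate 1. In the other 9 lymphomas it was not detected, at 4.49 to 5.07. The order of the 3 lymphomas therefore differed from that of Cd3d, with wildtype replicate 6 above null replicate 1. The probe ILMN_1256639 was detected in wildtype replicate 6 (6.20) and null replicate 1 (5.65), and ILMN_2828172 in wildtype replicate 6 alone (5.31). These 2 probes fell short of the filter of 3 arrays and were not tested.

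Lck, the kinase that phosphorylates the CD3 motifs, was detected in all 12 lymphomas. It ran from 7.21 through 7.93 to 10.30 in wildtype and from 6.52 through 7.76 to 10.50 in null lymphomas. Null replicate 1 and wildtype replicate 1 were highest, wildtype replicate 6 (9.17) and null replicate 6 (8.73) came next, and null replicate 2 was lowest. Wildtype replicates 3, 4 and 5 lay between 7.90 and 7.95. Null replicate 6 had no detected Cd3e on either probe, and Cd3d there was at 5.22.

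Zap70, the kinase recruited by phosphorylated CD3 chains, was high also in wildtype replicate 3, where the CD3 chain genes were not detected. Its brightest probe, ILMN_2513870, ran from 6.07 through 8.97 to 10.19 in wildtype and from 4.47 through 7.06 to 10.81 in null lymphomas, detected in all but null replicate 4. Wildtype replicate 3, in which Cd3d, Cd3e, Cd3g and Cd247 were all not detected, had Zap70 at 8.93, close to the 9.01 of wildtype replicate 1. All 3 Zap70 probes were detected in wildtype replicate 3, at 8.93, 7.82 and 6.12. Wildtype replicate 4 was at 9.35, with Cd3d at 5.33 and Cd3g at 6.81, both detected, and Cd3e not detected. In the reverse direction, wildtype replicate 2 and null replicate 2 had Zap70 at 6.07 and 6.53 with Cd3d at 6.42 and 7.85. The 3 probes had Pearson r of 0.89 to 0.96 with each other over the 12 arrays.

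Lat, the adaptor downstream of ZAP70, was detected in wildtype replicates 1 (6.72), 5 (5.21) and 6 (6.11) and in null replicate 1 (8.74). In the other 8 lymphomas it was not detected, at 4.27 to 4.92. Its second probe, ILMN_1242795, was detected on no array, at 4.35 to 4.70. The gene's values rest on ILMN_2660551 alone.

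Cd2, the adhesion receptor, was detected in all 12 lymphomas and had the smallest measured range of the 10 genes. It ran from 9.57 through 10.68 to 11.79 in wildtype and from 9.53 through 10.61 to 10.99 in null lymphomas, a 4.82-fold range over all 12. The lowest were wildtype replicate 2 and null replicate 2 (9.57 and 9.53). The high CD3 level of null replicate 1 had no match in Cd2, at 10.87 against 10.84 in null replicate 6 and 10.99 in null replicate 3.

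Cd28, the costimulatory receptor, was detected in 3 wildtype and 3 null lymphomas. It ran from 4.53 through 5.49 to 7.01 in wildtype and from 4.43 through 4.95 to 7.20 in null lymphomas. The detected levels were 7.20 in null replicate 1, 7.01 in wildtype replicate 2, 6.58 in wildtype replicate 6, 6.55 in null replicate 2, 6.10 in wildtype replicate 1 and 5.28 in null replicate 5.

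Ctla4, the inhibitory receptor, was detected in wildtype replicates 2 (6.70), 1 (6.06) and 6 (5.93) and in no null lymphoma. The null lymphomas were at 4.28 to 5.08, where replicates 1 and 2 (detection p-values of 0.0502 and 0.0609) were closest to detection. The gene passed the filter through wildtype lymphomas alone. Cd28, Ctla4 and the related receptor gene Icos are neighbours on chromosome 1, and Icos was detected in 5 lymphomas.

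By lymphoma, all 10 genes were detected in wildtype replicates 1 and 6 and 9 in null replicate 1. Wildtype replicate 2 had 8, and null replicates 2 and 5 had 7. Wildtype replicate 5 and null replicate 3 had 6, and wildtype replicate 4 and null replicate 6 had 5. Wildtype replicate 3 had Zap70, Lck and Cd2 alone, and null replicate 4 had Cd3g, Lck and Cd2.

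The levels of the 10 genes were compared across lymphomas pair by pair, with a two-sided permutation test of 100000 resamples and Benjamini-Hochberg adjustment over all 45 pairs. Pearson r was above 0 in 43 pairs, with a median of 0.66, and 24 pairs passed an adjusted p of 0.05. By Spearman rho 18 pairs passed, and 14 passed by both. The mean of Cd3d, Cd3e and Cd3g ran from 4.64 in wildtype replicate 3 through 6.43 and 7.57 in wildtype and null replicate 2 to 8.31, 9.10 and 11.45 in wildtype replicate 6, wildtype replicate 1 and null replicate 1. Null replicate 1 stood apart at the top, the other lymphomas were spread below it, and all 12 were treated as 1 set. Below detection the order of values has no meaning, which limits rho for Cd247, Lat, Cd28 and Ctla4. It also limits rho for Cd3e, whose tested probe was detected in 7 of the 12 lymphomas. Without the 2 lymphomas farthest from the median of the gene on the x axis 7 pairs passed, all of them among the 24. Without wildtype replicate 1, 15 pairs passed, and within BeadChips 1 and 2, with 6 lymphomas each, 6 and 0 did in the exact permutation test, which gave 11 and 14 pairs with an unadjusted p under 0.05. With 6 lymphomas the smallest p of that test is too large for 1 pair alone to pass after adjustment over 45 pairs. The count of 0 on BeadChip 2 is therefore not read as a lack of relation.

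Those 7 pairs were Cd3d with Cd3e, Cd3d with Cd3g, Cd3e with Cd3g, Cd3d with Cd28, Cd3g with Lat, Cd247 with Lat and Cd28 with Ctla4. For Cd247 with Lat the 2 left out were wildtype replicate 6 and null replicate 1. Of the rest, Cd247 was detected in wildtype replicate 1 alone (5.77), so that r of 0.94 rests mostly on levels near background. Lat, Cd28 and Ctla4 were likewise not detected in most of the lymphomas left in their pairs, and Cd3e was not detected in several of those left in its pairs. For Cd3d and Cd3e, r was 0.98 and rho 0.97 over 12 lymphomas (adjusted permutation p = 0.0003 and 0.00045), and r was 0.95 without the 2 farthest. Within BeadChip 1 and BeadChip 2, r was 0.99 and 0.97 (exact permutation test over 6 lymphomas, adjusted p = 0.0312 and 0.0764). For Cd3d and Cd3g, r was 0.98 and rho 0.92 (adjusted permutation p = 0.0003 and 0.00247), with 0.94 without the 2 farthest and 0.98 within each BeadChip. For Cd3e and Cd3g, r was 0.95 and rho 0.85 (adjusted permutation p = 0.0003 and 0.00621). The CD3 chain genes thus rose and fell together in these lymphomas.

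Lat had r of 0.94, 0.93 and 0.94 with Cd3d, Cd3e and Cd3g. With Cd3d, rho was 0.86 (adjusted permutation p = 0.00117 for r and 0.00621 for rho), and without the 2 farthest r was 0.80 and did not pass (adjusted p = 0.0578). Cd28 and Ctla4, on the same stretch of chromosome 1, had r of 0.79 and rho of 0.75 (adjusted permutation p = 0.0105 and 0.0242), with 0.85 without the 2 farthest and 0.97 and 0.76 within BeadChips 1 and 2.

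Zap70 and Lck followed the CD3 chains less closely in these values. Zap70 with Cd3d, Cd3e and Cd3g had r of 0.61, 0.55 and 0.64, of which the last passed (adjusted permutation p = 0.0471), and without the 2 farthest r was 0.32, 0.17 and 0.39. Lck with the same genes had r of 0.70, 0.68 and 0.69, and all 3 passed, but without the 2 farthest r was 0.12, -0.11 and 0.13. The relation of Lck with the CD3 chains rests on those lymphomas. Zap70 and Lck together had r of 0.77 and rho of 0.84 (adjusted permutation p = 0.0105 and 0.00855), with 0.68 without the 2 farthest (adjusted p = 0.0867). Whether these r differ from those among the CD3 chains was not tested.

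Cd2 had r of 0.18, 0.22 and 0.16 with Cd3d, Cd3e and Cd3g, none of which passed (adjusted permutation p = 0.599, 0.534 and 0.61). With Cd28 its r was -0.29, the lowest of the 45 (adjusted permutation p = 0.429). Cd2 passed with Lck (r = 0.67, adjusted permutation p = 0.0377), but not by rho (0.55, adjusted permutation p = 0.144) or without the 2 farthest (r = 0.56, adjusted permutation p = 0.186).

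**Figure D2:**
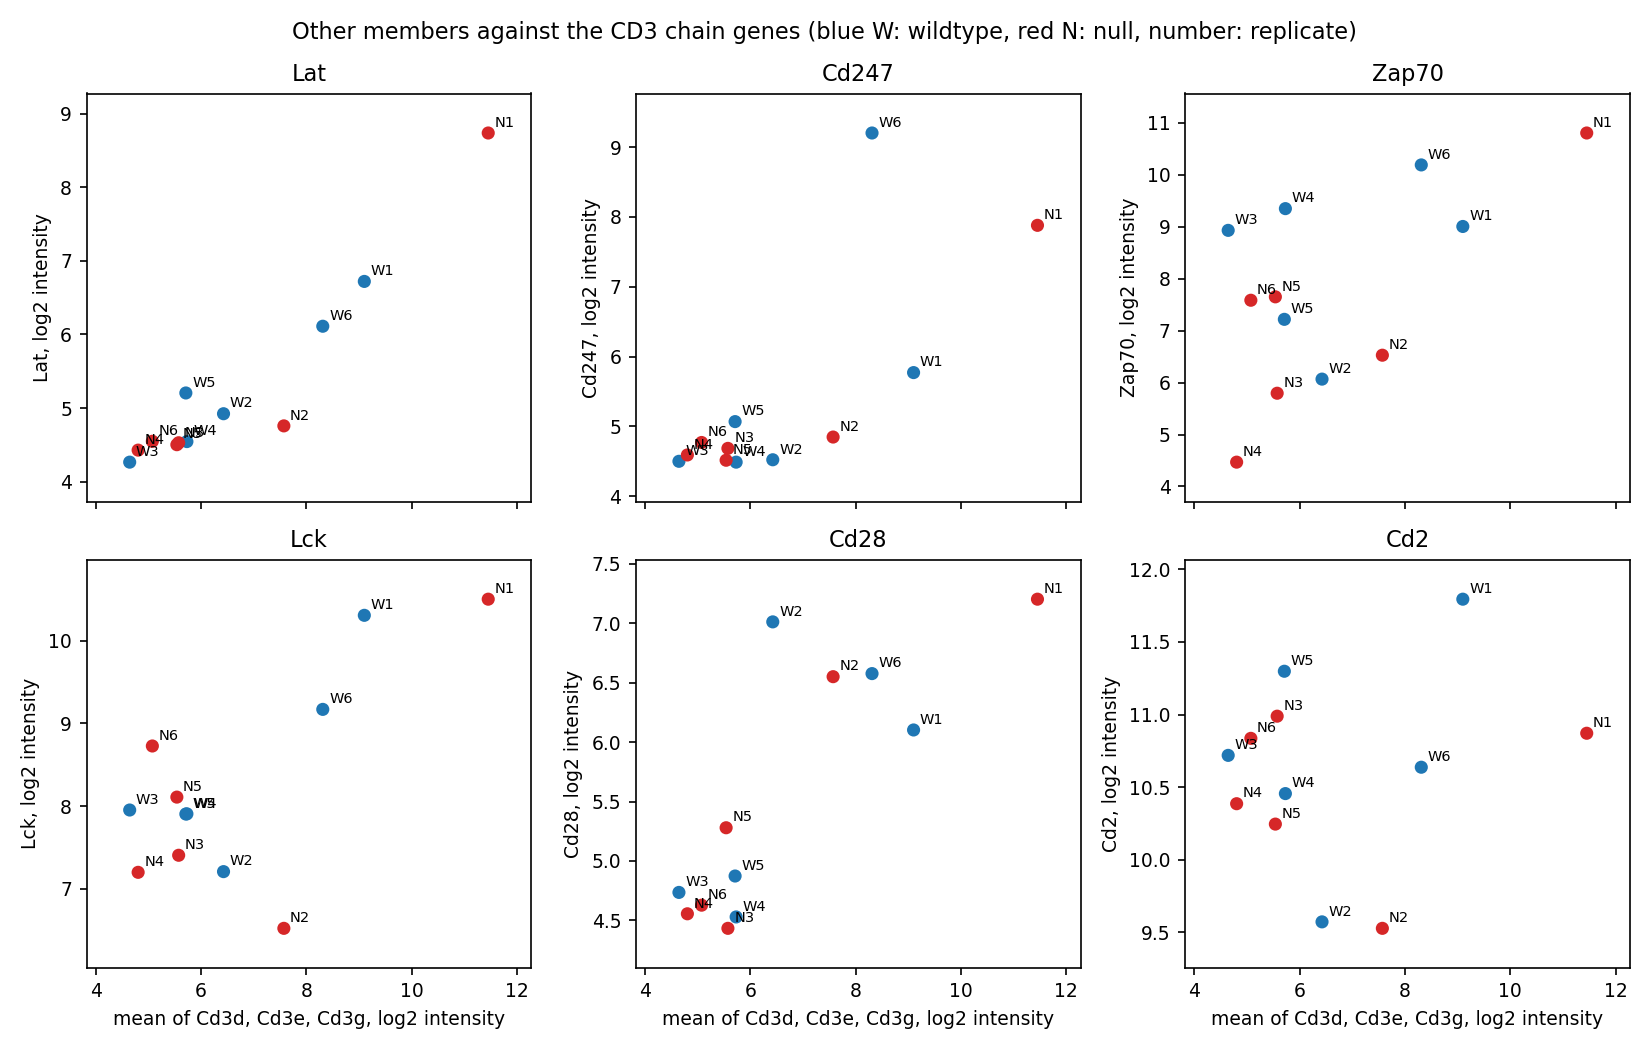
Log2 intensity of Lat, Cd247, Zap70, Lck, Cd28 and Cd2 (y axes) against the mean log2 intensity of Cd3d, Cd3e and Cd3g (x axes), 1 point per lymphoma, wildtype in blue (W) and null in red (N) with the replicate number. Lat was highest in N1, W1 and W6, which had the highest CD3 means, and of the other lymphomas was detected in W5 alone. Zap70 was high also in W3 at the lowest CD3 mean, and Cd2 was lowest in W2 and N2.

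The genes most like the mean of Cd3d, Cd3e and Cd3g over the 12 lymphomas were named by their Pearson r, as a description. The median r over the 12822 genes was -0.058. A130082M07RIK, which keeps its name in the files, had r of 0.99. Bcl11b, a transcription factor of T cell commitment, had 0.98. It was at 9.72 in null replicate 1, 7.76 in wildtype replicate 1 and 6.52 in wildtype replicate 6, and at 4.32 to 5.83 in the other 9 lymphomas. Pdcd1lg2 (a ligand of the inhibitory receptor PD-1) and Ppfibp2 followed at 0.97, and Sh3kbp1, Plgrkt, LOC100046930, LOC665506 and Map3k8 at 0.96 to 0.97.

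Nearest genes of the other members were taken in the same way. For Lat they were LOC100046930, Bcl11b and Tcf7, at 0.97 to 0.98. These genes were detected on 4, 5 and 3 arrays and Lat on 4, so most of the levels compared are near background. For Lck they were H2-Eb2 (a class II histocompatibility gene, 0.99), Pik3r4 (0.97) and Gimap5 (0.96). H2-Eb2 was at 10.20 in null replicate 1, 10.01 in wildtype replicate 1 and 6.46 in null replicate 2, the lowest. For Zap70 they were Pik3ip1 (0.92), Nfrkb (0.91) and LOC100046372 (0.88). Pik3ip1 was at 8.71 in wildtype replicate 3 and 5.66 in null replicate 4, as Zap70 was high in the first and not detected in the second. For Cd247 they were Hnrnpll and 2 immunoglobulin variable segments, at 0.93 to 0.95. Hnrnpll was detected on 4 arrays, the segments on 3 each and Cd247 on 3, so here too most levels are near background. For Cd2 they were Hint2, LOC100044968 and Serpinb1a, at 0.91 to 0.94. For Cd28 they were LOC100048845, Lime1 and Pacsin1, at 0.95 to 0.97, and for Ctla4 Plekhm1, Actn1 and Grk5, at 0.84 to 0.86.

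Genes of the receptor chains themselves were read from a list. Of its 31 genes on the array, 6 passed the detection filter. The single probe of Trac, the constant part of the alpha chain, was detected on no array. Trbv13-2, a beta chain variable segment listed as TCRB-V8.2 and named here after its values were seen, was at 11.22 in wildtype replicate 1, 10.93 in null replicate 1 and 9.33 in wildtype replicate 6. The other 9 lymphomas were at 4.56 to 7.97. The probe named TRBV6, also chosen after its values were seen, was at 10.81 in null replicate 1 and at 4.35 to 5.94 in the other 11. A transcript of 1 variable segment at such a level in 1 lymphoma is given here as a value, and its source was not tested. The other tested genes of this list had other orders. TRBV1, TRBV8 and Trgv7 were not detected in null replicate 1, at 4.36, 4.65 and 4.84, and Ptcra was detected there at 5.56. TRBV1 and TRBV8 were highest in wildtype replicate 1 (5.75 and 6.44), Trgv7 in null replicate 2 (6.48) and Ptcra in wildtype replicate 2 (5.66).

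Among the coreceptor genes, Cd4 was at 7.48 in wildtype replicate 2 and at 4.39 to 5.56 in the other 11. The 2 probes of Cd8a, the alpha chain of CD8, were detected on no array, while the probe of Cd8b1, the beta chain, was at 10.68 to 11.78 on all 12. Among other T cell genes chosen after their values were seen, Thy1 was at 12.13 in null replicate 1 and 11.02 in null replicate 5, where Cd3d was at 5.79. Cd27 was at 10.58, 9.88 and 8.18 in null replicate 1, wildtype replicate 1 and wildtype replicate 6 and at 4.69 to 6.42 in the others. Other T cell surface genes had other orders. Cd7 was not detected in null replicate 1 (4.46) and was at 10.32 in both wildtype replicate 2 and null replicate 2. Cd6 was highest in wildtype replicate 2 (10.78). The mean of the 13 tested T cell surface genes was highest in wildtype replicate 2 (7.54), with null replicate 1 at 7.48. The probe of Foxp3, a factor of regulatory T cells, was at 9.11 to 10.34 on all 12 arrays. It was lowest in null replicate 1, the highest for the CD3 chain genes, and at 9.79 in wildtype replicate 3, where those genes were not detected. What the probes of Foxp3 and Cd8b1 measure in these lymphomas was not tested.

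Markers of other cells moved with some of these levels. The mean of 15 natural killer (NK) and cytotoxic genes reached 7.68 in wildtype replicate 1 and 7.32 in replicate 6, and lay at 5.07 to 6.73 in the other 10 lymphomas. Null replicate 1, the highest for Cd3d, Cd3e and Cd3g, was at 5.80 there, and Ccl5, a chemokine of cytotoxic cells chosen after its values were seen, was not detected in it at 4.71 against 10.05 in wildtype replicate 1. In these lymphomas 17 of 21 NK and cytotoxic genes on the array were detected in wildtype replicate 1, 16 in wildtype replicate 6 and 7 in null replicate 1. Among those 7, Prf1 was at 9.99, against 9.62 in wildtype replicate 1. Fcer1g, Ctsw, Tyrobp and Nkg7 were detected in null replicate 1 at 8.48, 7.84, 7.03 and 6.15, each below wildtype replicate 1. Klrb1c, the NK1.1 antigen, was not detected there at 4.37, but it was near background in all 12 lymphomas, at no more than 5.26. The mean of 13 myeloid genes was highest in null replicate 2 (8.29), wildtype replicate 2 (7.38) and null replicate 1 (7.36), against 5.24 to 6.95 in the others. The mean of 6 erythroid genes was highest in null replicate 2 (8.82) and null replicate 1 (8.64). The part of these cells in the levels of the T cell receptor genes was not tested.

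**Figure D3:**
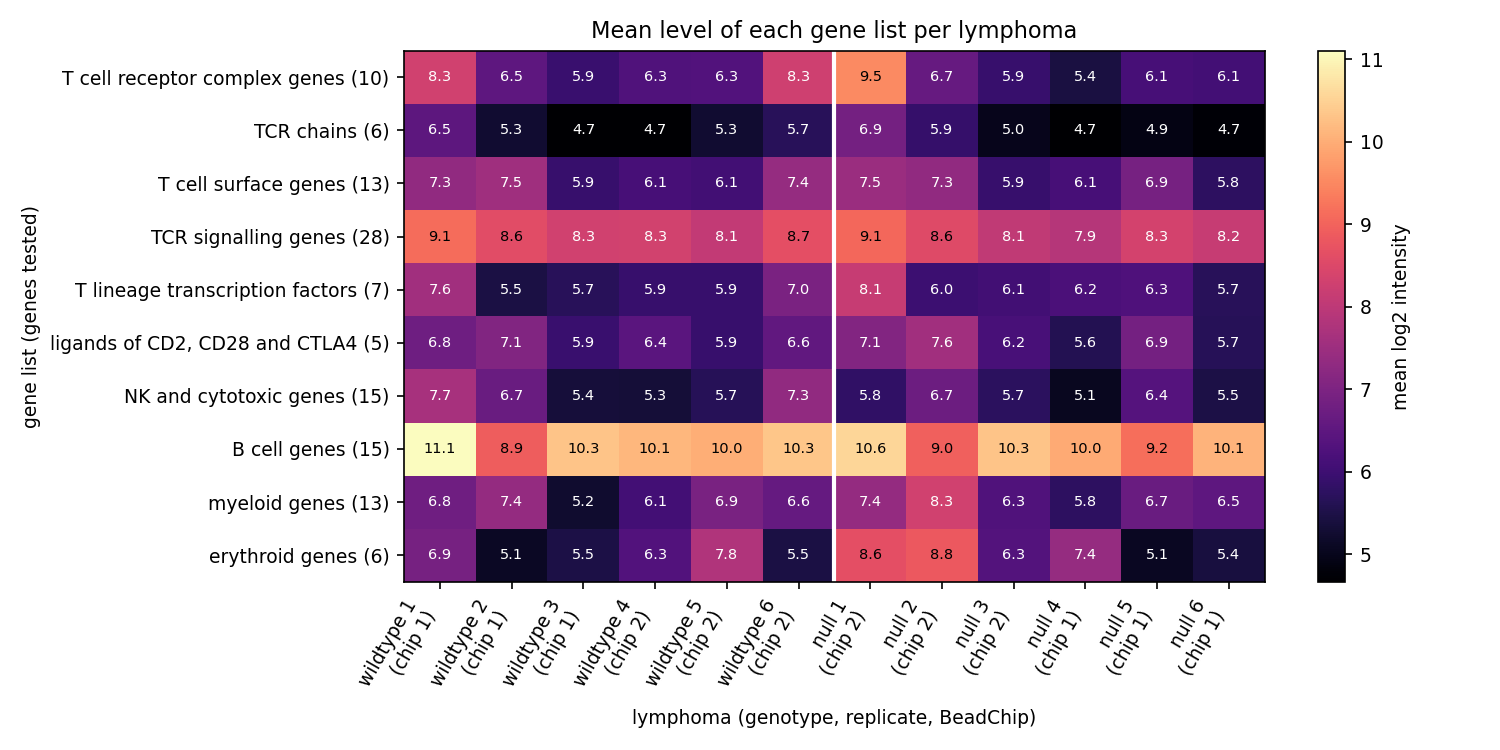
Mean log2 intensity of the tested genes of each list (rows, number of genes in brackets) in the 12 lymphomas (columns). The T cell receptor complex genes and T lineage transcription factors were highest in null replicate 1, and the T cell surface genes in wildtype replicate 2. The NK and cytotoxic genes were highest in wildtype replicate 1, and the B cell genes were lowest in wildtype replicate 2 and null replicate 2.

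The comparison of null with wildtype asks whether these genes differ with loss of Smchd1, a chromosomal protein that takes part in gene silencing. None of the 10 genes passed in limma's test over all 12822 genes, which called 3 genes or 0.0234% of them, and each of the 10 had an adjusted p of 1. At an unadjusted p under 0.05, 0 of the 10 passed, against 1.46% of all genes. The levels of both genotypes overlapped for each of the 10 genes, as they did for nearly all genes, since 0.0858% of the 12822 had groups that did not overlap. The difference, null minus wildtype, was below 0 for 8 genes and above 0 for 2, with a median of -0.27, and over all genes 6423 were below 0 and the median was -0.00046.

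The lowest unadjusted p among them was that of Ctla4, with 5.33 ± 1.02 in the wildtype group and 4.63 ± 0.34 in the null group (SD, n = 6 each). It was detected in 3 wildtype lymphomas and no null one, so it passed the detection filter through wildtype alone and the direction was fixed by that. The measured difference was -0.70, with a 95% interval from -1.58 to 0.17 (limma, adjusted p = 1). With the lowest value of any detected probe on each null array taken where that was higher than its own, the wildtype mean was 1.27-fold that of the null group. The wildtype mean also holds lymphomas where Ctla4 was not detected, so this is no firm minimum. On BeadChip 1 the difference was -1.33 and on BeadChip 2 it was -0.07.

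Zap70 had the widest difference of the 10, from 8.46 ± 1.52 in the wildtype group to 7.14 ± 2.16 in the null group (SD, n = 6 each). The difference was -1.32 ± 0.96 on the log2 scale (SE, limma, adjusted p = 1), with a 95% interval from -3.39 to 0.74 and values of -1.43 and -1.21 on BeadChips 1 and 2. Null replicate 1 was above every wildtype lymphoma, and without it the difference was -2.06, against -0.79 without null replicate 4 (limma, adjusted p = 1 for both). The second probe of Zap70 gave -1.27 and the dimmest -0.48.

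For the CD3 chains the difference was smaller than the spread among lymphomas and took opposite signs on the BeadChips. Cd3d was at 6.69 ± 1.95 in the wildtype group and 6.82 ± 2.74 in the null group (SD, n = 6 each), with a difference of 0.14 with a 95% interval from -2.49 to 2.76. It was -1.58 on BeadChip 1, which holds wildtype replicate 1, and 1.86 on BeadChip 2, which holds null replicate 1 and wildtype replicate 6. Whether BeadChips differ in this was not tested. Cd3e had a difference of 0.18 (-1.69 and 2.05 on BeadChips 1 and 2) and -0.26 on its other probe, and Cd3g had -0.27 (-1.48 and 0.94). Median scaling in place of quantile normalization turned Cd3d to -0.09 and Cd3e to -0.54, and without background correction Cd3e was at -0.08 and Cd3g at 0.004. Under both of these settings ILMN_1238847 was the brighter Cd3e probe and gave the gene's value. The sign turned on single lymphomas. With each left out in turn, Cd3d ran from -0.89 to 0.67, Cd3e from -0.70 to 0.70 and Cd3g from -1.24 to 0.15, in each case lowest without null replicate 1 and highest without wildtype replicate 1.

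The remaining members had differences of -0.38 for Cd247, -0.33 for Lck, -0.27 for Cd2, -0.20 for Cd28 and -0.04 for Lat. Their 95% intervals reached from -2.15 to 1.40 for Cd247, -1.76 to 1.09 for Lck, -1.04 to 0.50 for Cd2, -1.45 to 1.06 for Cd28 and -1.58 to 1.50 for Lat. The interval of Cd2 was the narrowest of the 10, and differences inside these intervals could not be told from 0 with 6 arrays a group. Cd28 and Lat took opposite signs on the BeadChips, at -1.13 and 0.74 for Cd28 and -0.81 and 0.72 for Lat. Without background correction Lat was at 0.11. With each lymphoma left out in turn, the lowest differences of Cd247, Lck, Cd28 and Lat were those without null replicate 1, at -0.91, -0.81, -0.55 and -0.74. Their highest were above 0, at 0.34 for Cd247 without wildtype replicate 6, 0.05 for Lck and 0.24 for Lat without wildtype replicate 1, and 0.08 for Cd28 without wildtype replicate 2. Cd2 stayed below 0, from -0.51 without wildtype replicate 2 to -0.06 without wildtype replicate 1.

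**Figure D4:**
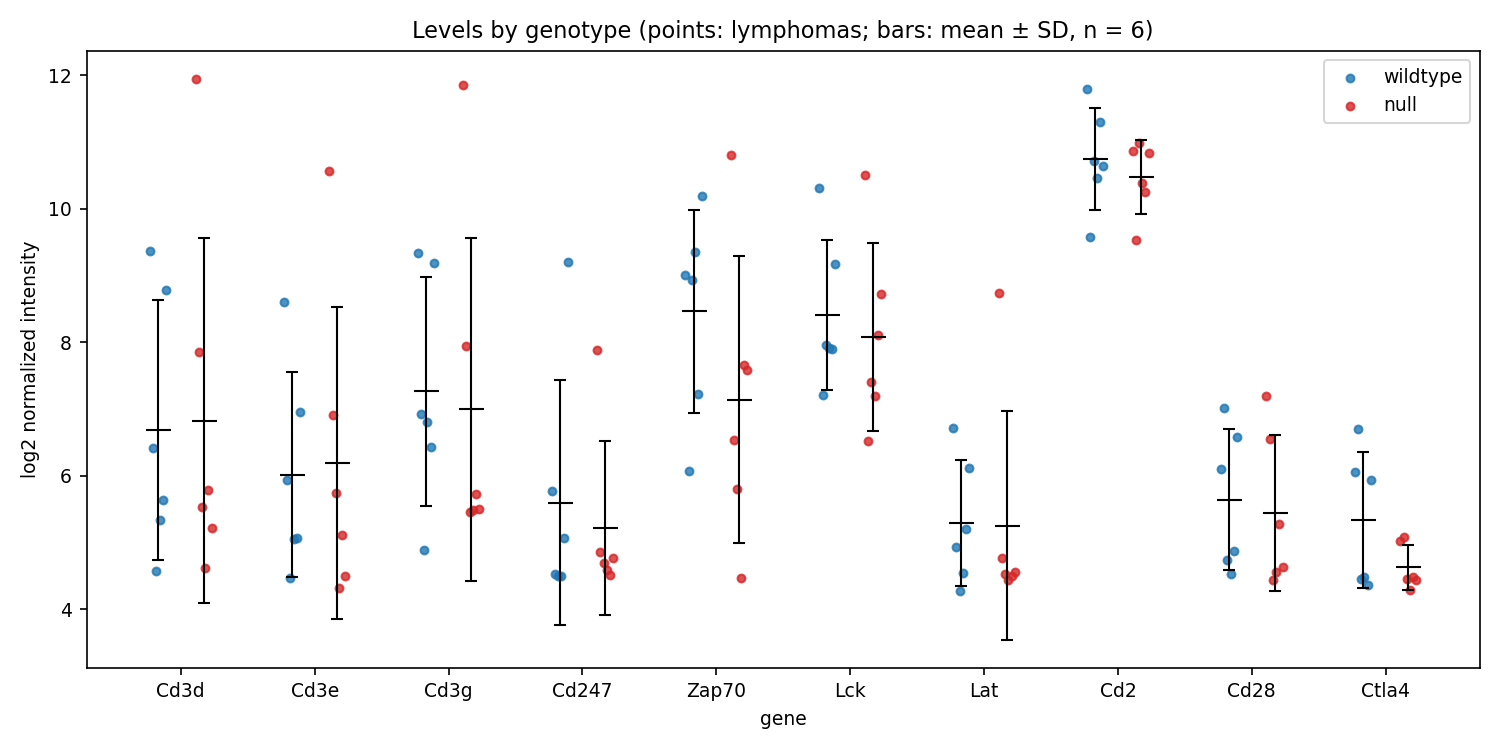
Log2 intensity of the brightest probe of each gene (x axis) in 6 wildtype and 6 null lymphomas (points), with the mean ± SD as bars. The groups overlap for every gene, and null replicate 1 is the highest point for Cd3d, Cd3e, Cd3g, Zap70, Lck, Lat and Cd28.

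**Figure D5:**
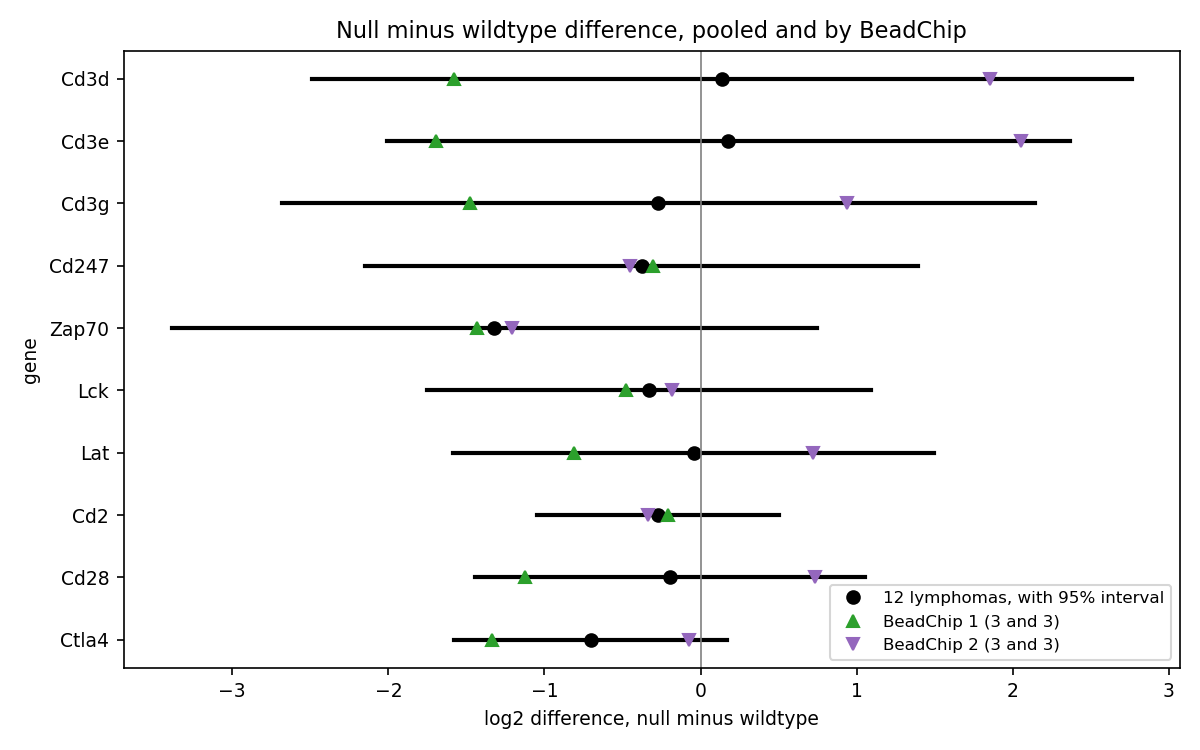
Null minus wildtype difference in log2 intensity (x axis) for each gene, over all 12 lymphomas with its 95% interval (black) and on each BeadChip with 3 wildtype and 3 null lymphomas (triangles). Every interval spans 0, and Cd3d, Cd3e, Cd3g, Lat and Cd28 lie on opposite sides of 0 on the BeadChips.

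Genes of the wider pathway were read from the same test. Of 28 tested T cell receptor signalling genes, 0 passed in limma and 0 had an unadjusted p under 0.05. The difference was above 0 for 6 and below 0 for 22, with a median of -0.11. Over all 12822 genes 6423 were below 0, with a median of -0.00046. The 28 genes were measured in the same lymphomas, so their signs are not separate observations. Grb2, among the 22, was detected in 3 wildtype lymphomas and no null one, so its direction was fixed by the filter. The smallest p-values of the 28 were those of Cblb, a ubiquitin ligase that restrains receptor signals (-0.51 ± 0.30), and Ptprc, the phosphatase CD45 (-0.64 ± 0.41, both SE in limma, adjusted p = 1). No passing gene was found among the 13 T cell surface genes (median -0.17, with Tnfrsf4 at -0.53 and Cd4 at -0.47), the 7 T lineage transcription factors (0.05, with Satb1 at 1.19 and Lef1 at -0.34), the 6 receptor chain genes (-0.18, with Trgv7 at 0.37 and TRBV1 at -0.31) and the 5 ligands of CD2, CD28 and CTLA4 (0.12, with Cd86 at -0.46 and Cd80 at 0.28), and none had an unadjusted p under 0.05. Of 15 NK and cytotoxic genes 0 passed and 1, Klrb1c, had an unadjusted p under 0.05. Klrb1c and Klre1 were detected in 4 and 3 wildtype lymphomas and no null one, and Fasl and Klra1 in 3 wildtype lymphomas each and no null one. These genes passed the detection filter through wildtype alone, so their direction was fixed by that. With the null arrays raised to their lowest detected value, the wildtype means of Klrb1c and Klre1 were 1.05-fold and 1.44-fold those of the null group (limma, adjusted p = 1 for both). The wildtype means also hold lymphomas without detection, so these are no firm minimum. The B cell, myeloid and erythroid lists had 0 passing genes and 0 with an unadjusted p under 0.05, with medians of -0.24, 0.30 and 0.62. Among them Blk was at -1.12, Btk at -0.24, Ngp at 0.62, S100a9 at 0.53, Slc4a1 at 1.44 and the gene listed as ERAF at 1.38.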

How the data were processed

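Groups and replicate numbers came from the sample titles. Per the labels, an RNeasy micro kit gave the RNA and a MessageAmp kit the labelled cRNA. Per the file headers, the deposited intensity of a probe is its mean over beads, exported by GenomeStudio with no normalization. BeadStudio, limma 3.12.1 and R 2.15.1 are the tools of the submitters' processing notes. The deposited detection fraction equals 1 minus the detection p-value of the second deposited table. The authors' deposited log2 values differed from those computed here by at most 5e-09.

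Analysis used limma 3.58.1 with R 4.3.3. The neqc function corrected background with 936 negative control probes, added an offset of 16 and quantile normalized. Probes with detection p under 0.05 on at least 3 arrays entered (18921), and the brightest per gene was kept (12822 genes). Null minus wildtype was tested with lmFit and eBayes over all 12 arrays, with Benjamini-Hochberg adjustment, a threshold of 0.05 and moderated standard errors. The labels do not say that replicates are separate animals, so p-values measure the spread between these samples, and the number of arrays limits precision. Permutation tests used Python 3.11.15 and scipy 1.17.1, and both tests were checked on simulated data. Alternatives covered background correction, scaling, detection filter, probe choice, the deposited values, BeadChip, replicate number, array weights and leaving out each lymphoma.

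The members and lists were chosen with earlier results of these data known. Named were all members, Smchd1, Cd79b, Cd4, Cd8a and Cd8b1, from each list the genes that passed or else the 2 with the smallest p, and the genes with the highest r. Cd79a was on the rule and is not analysed here, and some other genes the rule or the lists named are not reported here. Of 30774 target names, 15991 matched a symbol, 5826 a synonym and 887 a gene ID in the RefSeq gene table for GRCm38.p6, whose gene coordinates are not printed because the files name no build.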

Additional observations from a re-analysis of the deposited data

Results flagged for a closer look

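In 4 of the 26 groups of 6 lymphomas examined (13 tested probes of the members in each genotype), 1 lymphoma lay so far above the others that its gap to the nearest exceeded 0.625 of the range of the group. Chance alone flags some such groups, in about 5% of groups. Null replicate 1 did so on the second Cd3e probe, ILMN_1238847, at 10.41 with the nearest null lymphoma at 6.06. It did so for Lat, at 8.74 with the nearest at 4.76, and for Cd247, at 7.88 with the nearest at 4.85. Wildtype replicate 6 did so for Cd247, at 9.20 with the nearest wildtype lymphoma at 5.77. For Lat and Cd247 the nearest null lymphomas were not detected, so these gaps run from background.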

How the results depend on the processing

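Across 23 alternatives 0 of the 10 genes passed, where Cd247, Lat and Ctla4 were not tested under the filter of 6 arrays. Over all genes the count of 3 was 1 on BeadChip 1 alone, 0 on BeadChip 2 alone and 3 to 5 with each lymphoma left out, 5 being without wildtype replicate 2. An unadjusted limma p under 0.05 arose for Zap70 with array weights (-1.88) and without null replicate 1 (-2.06), and for Ctla4 without wildtype replicate 5 (-0.90) and with the replicate block (-0.70), each with an adjusted p of 0.999 or 1. Ctla4 passed the detection filter through wildtype lymphomas alone, so its direction was fixed by the filter and its p cannot be read as a difference. With the replicate block 0 members passed, and same-numbered lymphomas had r of -0.26 to 0.68 between their deviations. The labels do not say whether the numbers pair the samples, and this was not tested. Wildtype replicates 1 and 2 correlated best with their own number and the others did not. Of the 45 pairs, 24 passed, and 7 without the 2 farthest lymphomas, 6 within BeadChip 1 and 0 within BeadChip 2, where the exact permutation test over 6 lymphomas gave 14 pairs with an unadjusted p under 0.05. In that test 1 pair alone cannot pass after adjustment, however close its relation. With each lymphoma left out 15 to 30 passed, 15 being without wildtype replicate 1. Cd3e with Lck turned to -0.11 without the 2 farthest. Over all pairs and alternatives, 116 values that had passed no longer did and 19 that had not passed did. Levels near background have no order, which limits Cd247, Lat, Cd28, Ctla4 and in part Cd3e.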
